A study of Rattus norvegicus with 32 samples.

Results

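Clone_217, Clone_287, Clone_218 and Clone_347 are the 4 grafted thymic epithelial clones of embryonic day 16 (E16) in a series of 16 rat epithelial cultures. They account for 8 of 32 arrays. They were set against each other as 2 kinds, Clone_217 and Clone_287 against Clone_218 and Clone_347, and each kind holds 1 clone recovered after the first transplantation and 1 after the second. The division into kinds was selected on expression values of these same arrays, Lgals7, Ctnnal1 and Sh3rf2 among them, so every difference between the kinds is a description and carries no test.

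The donors were Sprague-Dawley rats that express enhanced green fluorescent protein (EGFP) in all 16 cultures. Thymic epithelial cells (TEC) and hair follicle (HF) cells were grown on irradiated 3T3-J2 cells, a mouse fibroblast line. Grafted cells were placed in skin on nude mice, which lack a thymus and hair and tolerate foreign cells, and were recovered from green follicles and cultured again. The series asks how cells of the thymus and of the hair follicle compare before and after such transplantation. Clone_217 and Clone_218 are E16 TEC after the first transplantation, and Clone_287 and Clone_347 are E16 TEC after the second. Also used were 4 grafted TEC cultures from donors of postnatal day 1 (P1) or 4 months, and 2 grafted HF cultures of P5 donors. Of these TEC cultures, Clone_57 (P1) and Clone_907 (4 months) followed the first transplantation, and Clone_194 (P1) and Clone_354 (4 months) the second. Both grafted HF cultures followed the first. The ungrafted cultures were 1 E16 TEC clone (PRE16cl11_VII), 3 TEC cultures of P1 or 4-month donors, and 2 HF cultures of P5 donors. Clone_907 and Clone_354, despite their names, and PRP4mo_bulk, YR219P5_RC and YR219P5_Bulk_V were bulk cultures, and the others were clones. Each of the 4 grafted E16 clones is a single clone. The labels do not say whether Clone_287 was grown from Clone_217 or Clone_347 from Clone_218. The RNA was taken after culture on feeder cells, so the values describe cells grown out of a graft and not cells within it.

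Thymic epithelium forms from pharyngeal endoderm and supports the development of T cells. Many of its cells carry simple-epithelial keratins such as keratin 8 and keratin 18 beside the basal keratins of stratified epithelium. Hair follicle and epidermal keratinocytes are of ectodermal origin, express few simple keratins and, as they leave the basal layer, switch on genes of the suprabasal programme. Galectin-7, the product of Lgals7, is a sugar-binding protein known from stratified epithelia.

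Signals are log2 values for a probe set, the group of array probes that stands for a gene, averaged over the 2 arrays of a culture. A difference of 1 is 2-fold. The arrays of a culture correlated at 0.9925 for Clone_217, 0.9967 for Clone_287, 0.997 for Clone_218 and 0.9889 for Clone_347, the last being the lowest of the 16 cultures. Array medians in the 4 clones lay between 5.287 and 5.554. A probe set was called between the kinds when the 4 arrays of one kind did not overlap the 4 arrays of the other and when the difference reached 2-fold in the same direction both after the first transplantation (Clone_217 minus Clone_218) and after the second (Clone_287 minus Clone_347). The labels name no array batch.

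Clone_217 and Clone_287 carried more Moxd1 and more of 7 of 36 measured genes of suprabasal keratinocytes, Lgals7, Dmkn and Sbsn among them, than Clone_218 and Clone_347. They carried less keratin 8, 18, 19 and 7, and less of 2 suprabasal genes, Krt4 and Tgm1. Of 15310 probe sets with 1 gene symbol, 113 (0.738%) were called higher in Clone_217 and Clone_287 and 94 (0.614%) were called lower. They stand for 112 and 91 genes. Because the kinds were chosen on these values, the counts describe their size and nothing is read from them. In the first pair, 197 probe sets were at least 2-fold higher and 279 at least 2-fold lower in Clone_217, and in the second pair 487 were higher and 185 lower in Clone_287. Both pairs reached 2-fold in the same direction for 114 higher and 96 lower probe sets and in opposite directions for 5. Across all probe sets the 2 pairs' differences correlated at 0.44 (genes are not independent replicates). Without the second array of Clone_347, which agreed least with its partner, 107 probe sets were called higher, of which 105 were among the 113, and 107 lower, of which 92 were among the 94.

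**Figure D1:**
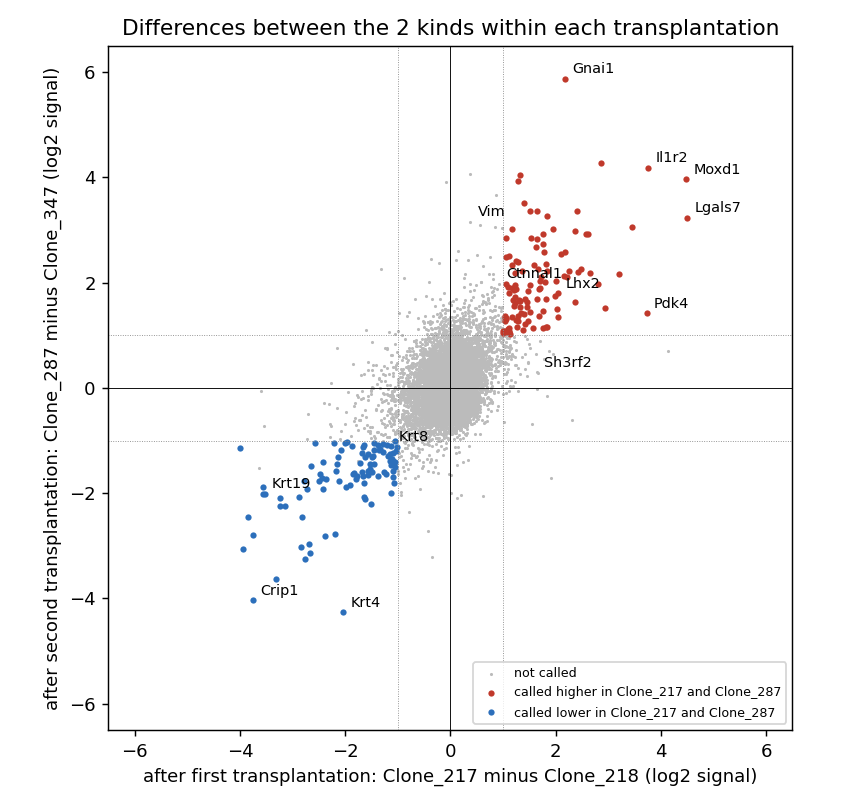
Each point is 1 of 15310 probe sets. The horizontal axis is Clone_217 minus Clone_218 and the vertical axis Clone_287 minus Clone_347, both in log2 signal, and dotted lines mark 2-fold. The 113 probe sets called higher lie at the upper right and the 94 called lower at the lower left, while Sh3rf2 and Vim differ in 1 pair.

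Over all probe sets the root mean square log2 difference was 0.256 between Clone_217 and Clone_287 and 0.368 between Clone_218 and Clone_347. Between clones of different kinds it was 0.412 for Clone_217 and Clone_218, 0.496 for Clone_287 and Clone_347, 0.408 for Clone_217 and Clone_347 and 0.46 for Clone_287 and Clone_218. Some cultures outside the 4 clones were closer than the 0.368 between Clone_218 and Clone_347. Clone_907 lay at 0.339 from Clone_217 and 0.332 from Clone_287, and the grafted HF culture Clone_54 at 0.352 from Clone_287. All other distances from the 4 clones to outside cultures were larger than 0.368. These distances are between means of 2 arrays. The 2 single arrays of one culture differed by 0.2 in Clone_218 and by 0.39 in Clone_347. Single arrays vary more than means, so these values cannot be set directly against the distances between clones. The distance from the ungrafted E16 clone was 0.51 for Clone_217, 0.541 for Clone_287, 0.389 for Clone_218 and 0.528 for Clone_347. Clone_218 was therefore nearer to the ungrafted E16 clone than the other three were, and its partner Clone_347 was about as far from it as Clone_217 was.

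Of the 3 genes by which the kinds had been marked, Lgals7 met the call rule and Ctnnal1 and Sh3rf2 did not. Lgals7 (probe set 10705654) had log2 signals of 11.44 in Clone_217 and 11.90 in Clone_287, against 6.94 in Clone_218 and 8.67 in Clone_347. The difference was 4.50 after the first and 3.24 after the second transplantation, on average 14.6-fold. The 2 clones with low Lgals7 also differed from each other, by more than the 2 high clones did, and both lay above the ungrafted E16 clone at 5.34.

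Ctnnal1 (10876896), which encodes an alpha-catenin-like protein, had signals of 8.55 in Clone_217 and 9.31 in Clone_287, against 7.62 in Clone_218 and 7.33 in Clone_347. The arrays of the kinds did not overlap, but the first difference was 0.93, just under 2-fold, while the second was 1.98. Sh3rf2 (10801343), a protein with SH3 domains, had signals of 8.69 in Clone_217 and 9.02 in Clone_287, against 7.04 in Clone_218 and 8.71 in Clone_347. Its level was low in Clone_218 alone, with differences of 1.65 and 0.30, so it did not separate the kinds after the second transplantation. Members close to the 2-fold limit on the inside included Vdr, at 1.25 and 1.29, and Krt8 (10751352), at -1.12 and -1.11.

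By number, genes of suprabasal keratinocytes were the largest listed group among those called higher, and their list was also the longest. The shorter follicle and melanocyte lists had 3 of 16 and 2 of 8 genes called higher. Over all probe sets 0.738% were called higher and 0.614% lower. Of 36 measured genes of suprabasal epidermal differentiation, 7 were called higher and 2 lower in Clone_217 and Clone_287, and the median difference was 0.41, against -0.03 over all probe sets. Lgals7, a marker of the kinds, is 1 of the 7. Dmkn and Sbsn encode dermokine and suprabasin, secreted proteins of the upper epidermal layers. Dmkn had signals of 8.11 in Clone_217 and 8.72 in Clone_287, against 4.91 in Clone_218 and 6.55 in Clone_347, a mean difference of 6.44-fold. Sbsn had 7.50 and 8.58 in Clone_217 and Clone_287, against 5.14 and 5.59 in Clone_218 and Clone_347, or 6.38-fold. Both were high in Clone_217 and Clone_287 with no overlap. In the ungrafted E16 clone Dmkn had a signal of 5.20. Sbsn had 5.0 there, below its level in each of the 4 clones.

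The other called members on the higher side were Ovol1, Klk10, Krt10 and Cnfn. Ovol1, a zinc finger transcription factor of differentiating epidermis, had signals of 8.23 and 8.59 in Clone_217 and Clone_287, against 6.56 and 6.33 in Clone_218 and Clone_347. Krt10, the keratin of the spinous layer, had 5.73 and 7.54, against 4.62 and 5.03, so that its excess was larger after the second transplantation. Klk10, a secreted serine protease, had 6.94 and 7.83 in Clone_217 and Clone_287, against 4.79 and 5.70 in Clone_218 and Clone_347. Cnfn, cornifelin of the cornified envelope, had 7.45 and 9.11, against 6.10 and 6.88.

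The members that ran the other way were Krt4 and Tgm1. Krt4, a keratin of the suprabasal layers of non-cornifying mucosa such as oesophagus, had signals of 4.70 in Clone_217 and 4.71 in Clone_287, against 6.73 in Clone_218 and 8.97 in Clone_347. Tgm1, the transglutaminase that cross-links the cornified envelope, had 8.71 and 9.40, against 9.86 and 10.79. Krt13, the mucosal keratin that accompanies Krt4, was not called, with differences of -0.74 and -1.23. Ivl, which encodes involucrin, had signals between 4.31 and 4.65 in the 4 clones. Klk10, Krt10, Cnfn, Tgm1, Krt13 and Ivl were named after their values were seen.

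**Figure D2:**
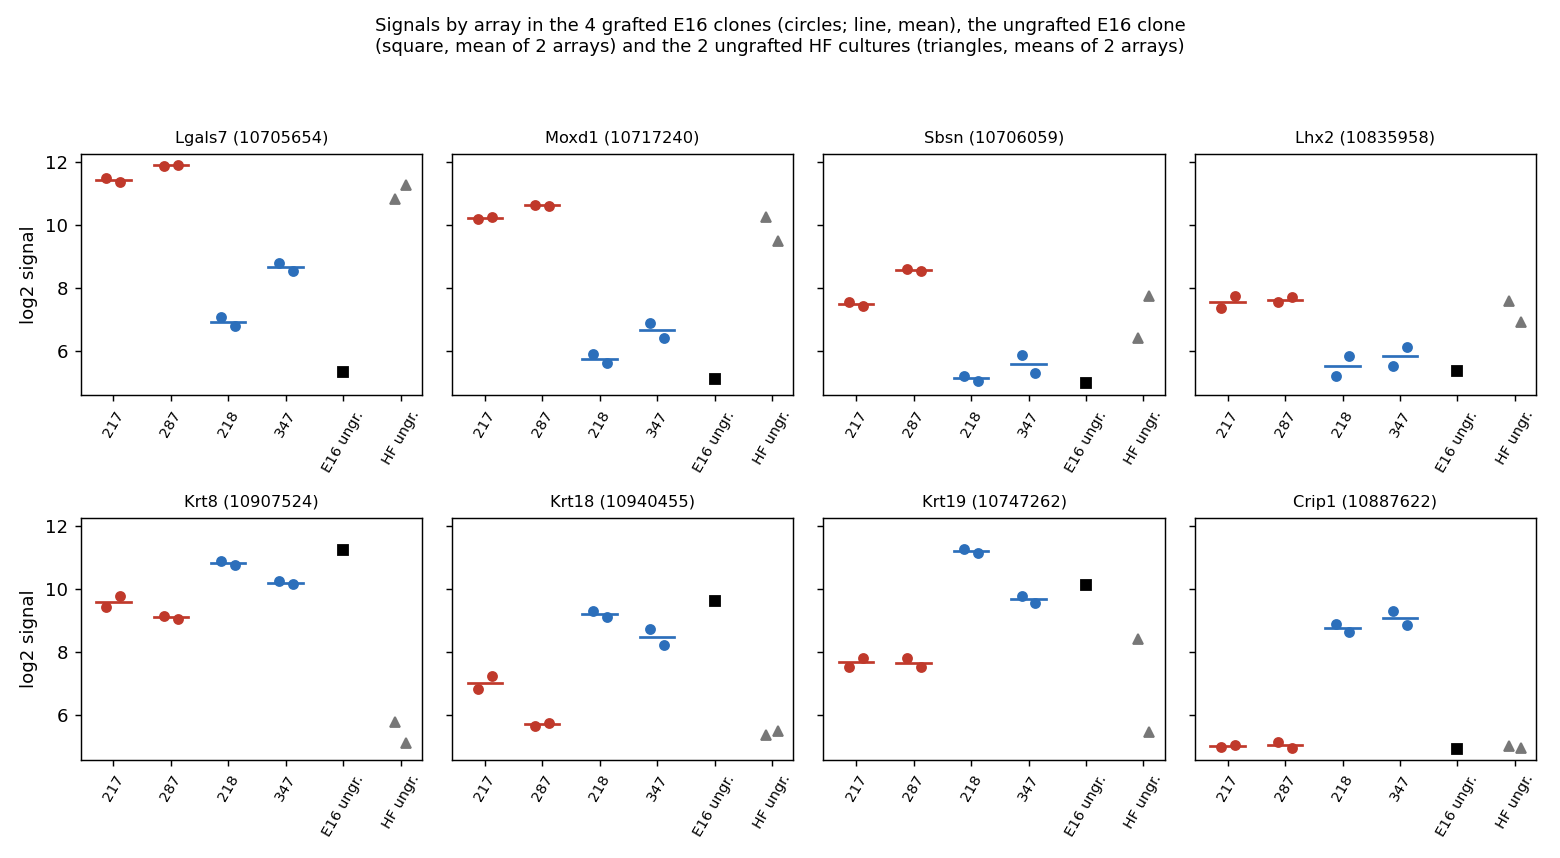
Log2 signals of 8 genes by array. Circles are single arrays of the 4 grafted E16 clones, with a line at each culture mean, the square is the ungrafted E16 clone and triangles are the 2 ungrafted HF cultures. Lgals7, Moxd1, Sbsn and Lhx2 are higher in Clone_217 and Clone_287, and Krt8, Krt18, Krt19 and Crip1 are lower, with no overlap of arrays.

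Transcription factors of squamous epithelium and of the follicle were also called higher in small numbers. Of 24 measured squamous transcription factors, 3 were called higher and 0 lower, where 0.738% and 0.614% of all probe sets were. Of their 26 probe sets, 21 had a positive mean difference, with a median of 0.43. Ovol1 and Gata3 are counted in other lists as well. Tfap2c, an AP-2 factor of surface ectoderm and keratinocytes, had signals of 8.28 in Clone_217 and 8.56 in Clone_287, against 6.64 in Clone_218 and 6.88 in Clone_347. In this gene the low clones stood apart from the ungrafted E16 clone at 8.26. Gata3, a factor needed both in the inner root sheath of the follicle and in the thymus, had signals of 10.04 and 10.00 in Clone_217 and Clone_287, against 8.66 and 8.90 in Clone_218 and Clone_347.

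Of 16 measured genes of hair follicle stem cells and placodes, 3 were called higher and 0 lower, with a median difference of 0.04. The shares over all probe sets were 0.738% higher and 0.614% lower. Lhx2, a LIM homeodomain factor of follicle stem cells, had signals of 7.57 in Clone_217 and 7.64 in Clone_287, against 5.52 in Clone_218 and 5.84 in Clone_347, a 3.80-fold mean difference. Vdr, the vitamin D receptor, which the hair cycle requires, had 8.65 and 8.98, against 7.39 and 7.69. Msx2, a homeobox gene of the hair matrix, had low signals of 4.96 and 5.53, against 3.93 and 4.45, of which that of Clone_218 may be background. The other 13 measured genes of the list, Krt15 with differences of 0.00 and 0.54 among them, were not called. Of 21 hair shaft and inner root sheath genes, Gata3 and Msx2 were called and the hair keratins were not.

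The remaining genes with the largest excess in Clone_217 and Clone_287 belong to several functions. Moxd1 (10717240), a copper monooxygenase related to dopamine beta-hydroxylase, had signals of 10.24 in Clone_217 and 10.64 in Clone_287, against 5.76 in Clone_218 and 6.67 in Clone_347, an 18.6-fold mean difference. Gnai1, an inhibitory G protein subunit, had 8.65 and 9.37, against 6.46 and 3.50. The first pair differed by 2.18, and no difference or fold is given for the second, where the signal in Clone_347 was under 4 and may be background. Mgst1, a microsomal glutathione transferase, had 8.79 and 9.61, against 5.93 and 5.33. Tent5a, a poly(A) polymerase, had 8.28 and 8.90, against 5.66 and 5.98, and Slc6a4, the serotonin transporter, 7.93 and 8.18, against 5.35 and 5.25. In the 12 cultures outside the 4 clones Tent5a had signals of 6.57 to 8.15, between the kinds.

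Retinoid enzymes were among these genes. Rdh12, a retinol dehydrogenase, had signals of 8.58 in Clone_217 and 9.02 in Clone_287, against 5.12 in Clone_218 and 5.96 in Clone_347. Lrat, which esterifies retinol for storage, had 5.21 and 7.79, against 3.93 and 3.85. The sources used here give no background level for these arrays, so for the same reason no fold is given for Lrat, nor for Il36rn, Hpgd and S100a8 below. Pdk4, a kinase that restrains pyruvate oxidation, was higher in the first pair, with 8.38 in Clone_217 against 4.65 in Clone_218, than in the second, with 6.50 in Clone_287 against 5.07 in Clone_347. Ogfrl1 had 7.28 and 7.39, against 5.45 and 4.13. The 12 cultures outside the 4 clones had Ogfrl1 signals between 6.48 and 8.02, so it was the low level in Clone_218 and Clone_347 that stood apart.

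Ccnd2, the cyclin that drives entry into the cell cycle with its kinase partners, was the only called member of 29 measured cell cycle genes. It had signals of 10.31 in Clone_217 and 10.82 in Clone_287, against 7.88 in Clone_218 and 8.63 in Clone_347, and 11.82 in the ungrafted E16 clone. The lowest Ccnd2 signal in the 12 cultures outside the 4 clones was 9.40, so Clone_218 and Clone_347 lay below all of them. The mean signal of the cell cycle list was 9.03 in Clone_217 and 9.14 in Clone_287, against 9.19 in Clone_218 and 8.84 in Clone_347. Sfrp1, a secreted inhibitor of Wnt signalling and the only called member of 35 Wnt genes, had 5.91 and 6.86, against 4.12 and 4.29. Of all probe sets, 0.738% were called higher. Sesn1, a stress-response sestrin, had 9.06 and 8.72, against 7.08 and 6.97. Gjb2 (connexin 26) and Loxl2 (a lysyl oxidase) were also called higher, at 2.48-fold and 3.43-fold.

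Simple-epithelial keratins were lower in Clone_217 and Clone_287. Of 17 measured genes of simple epithelium, 5 were called lower (Krt8, Krt18, Krt19, Krt7 and Foxa1) and 0 higher. The shares over all probe sets were 0.614% lower and 0.738% higher. In this list 17 of 20 probe sets had a negative mean difference, with a median of -0.50. The largest was in Krt19, a keratin of simple and ductal epithelia, with signals of 7.69 in Clone_217 and 7.68 in Clone_287, against 11.21 in Clone_218 and 9.69 in Clone_347. Levels in Clone_218 and Clone_347 were on average 6.80-fold those in Clone_217 and Clone_287.

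Krt8 was measured by 2 probe sets that agreed. Its signals by probe set 10907524 were 9.61 in Clone_217 and 9.12 in Clone_287, against 10.82 in Clone_218 and 10.21 in Clone_347, a 2.22-fold excess in the second kind, and 11.24 in the ungrafted E16 clone. Krt18, its pairing partner, was measured by 3 probe sets, of which 2 were called. By probe set 10940455 it had signals of 7.03 in Clone_217 and 5.72 in Clone_287, against 9.22 in Clone_218 and 8.49 in Clone_347. The third probe set, 10745345, had signals between 4.94 and 5.49 in the 4 clones and differences of -0.34 and -0.54. Krt7 had 8.60 and 8.20, against 10.51 and 10.04. Foxa1, an endodermal transcription factor named after its values were seen, had 4.46 and 4.22, against 5.58 and 5.56.

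In every one of the 4 clones Krt8 remained far above the ungrafted HF cultures, which averaged 5.45 by probe set 10907524. Cldn4, a claudin of simple epithelia, had signals between 11.81 and 12.22 in the 4 clones, and Epcam, an adhesion molecule of simple and progenitor epithelium, between 10.46 and 10.87. The kinds therefore differed in the level of simple keratins and not in that of Cldn4 or Epcam by the call rule.

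Of the 15 largest deficits in Clone_217 and Clone_287, Krt4, Krt19 and Ptgs2 belonged to listed groups and the other 12 to none of them. Crip1 (10887622), a small LIM-domain protein, had signals of 5.04 in Clone_217 and 5.06 in Clone_287, against 8.78 in Clone_218 and 9.09 in Clone_347. The mean excess in Clone_218 and Clone_347 was 14.8-fold. The 12 cultures outside the 4 clones had Crip1 signals between 4.72 and 5.46, so it was the level in Clone_218 and Clone_347 that stood apart. Ddo, D-aspartate oxidase, had 6.64 and 5.62, against 9.41 and 8.87, with 4.72 in the ungrafted E16 clone. Padi4, a peptidylarginine deiminase, had 6.03 and 5.52, against 9.34 and 9.15, with 6.93 in the ungrafted E16 clone.

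Pi15, Hsd11b1, Tspan8 and Parm1 were among the genes for which the ungrafted E16 clone had a level close to the higher kind. Pi15, a secreted peptidase inhibitor, had signals of 4.42 in Clone_217 and 4.73 in Clone_287, against 8.36 in Clone_218 and 7.78 in Clone_347, with 7.48 in the ungrafted clone. Hsd11b1, the enzyme that regenerates active glucocorticoid, had 5.36 and 5.29, against 9.12 and 8.09, with 8.27 in the ungrafted clone. Tspan8, a tetraspanin, and Parm1, a mucin-like membrane protein, were 6.62-fold and 6.43-fold higher in Clone_218 and Clone_347.

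Arhgdib had signals of 5.87 in Clone_217 and 5.90 in Clone_287, against 9.72 in Clone_218 and 8.35 in Clone_347. Akap12, a scaffold for protein kinase A, had 7.13 and 5.63, against 9.81 and 8.59. Bid, a pro-apoptotic member of the BCL2 family, had 8.12 and 7.56, against 10.96 and 10.58. Mecom, a zinc finger transcription factor, had 4.57 and 4.11 by probe set 10822611, against 7.24 in both Clone_218 and Clone_347, and its other called probe set ran the same way. Mal, a membrane protein of apical transport, had 5.15 and 5.19, against 8.71 and 7.20. The ungrafted E16 clone was also nearer to Clone_218 and Clone_347 in Arhgdib (9.79), Akap12 (10.9), Bid (10.03) and Mal (7.75). The same held for Krt19 (10.15), Ptgs2 (9.20) and Krt4 (6.79), but not for Mecom (5.57).

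Genes of wounded and activated keratinocytes moved in both directions. Of 30 measured genes, 4 were called lower (Ptgs2, Il1a, Plaur and Areg) and 1 higher (S100a8), with a median difference of 0.06. The shares over all probe sets were 0.614% lower and 0.738% higher. Ptgs2, the inducible cyclooxygenase that makes prostaglandin precursors, had signals of 5.66 in Clone_217 and 5.79 in Clone_287, against 8.91 in Clone_218 and 8.03 in Clone_347. Hpgd, which inactivates prostaglandins, ran the other way, with 6.13 and 7.88, against 4.81 and 3.84. Its arrays within a clone differed by up to 1.33.

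Il1a, a ligand of the interleukin-1 receptor, had signals of 5.20 in Clone_217 and 4.74 in Clone_287, against 6.71 in Clone_218 and 6.94 in Clone_347. Il1r2, a decoy receptor that binds interleukin-1 without signalling, had 8.24 and 8.91, against 4.48 and 4.73, a 15.7-fold mean difference. Il36rn, the antagonist of the related interleukin-36 receptor, had 5.73 and 7.27, against 3.32 and 3.90. Il1rn, the interleukin-1 receptor antagonist, was not called, with differences of 0.25 and 0.85, and Il1b had signals between 3.83 and 4.05 in the 4 clones. Plaur, the urokinase receptor, had 7.96 and 7.36, against 9.31 and 8.54, and Areg, the ligand amphiregulin of the EGF receptor, 8.83 and 9.14, against 10.10 and 10.35. S100a8, a calcium-binding alarmin, had 5.18 and 6.72, against 3.43 and 3.79.

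Promoter sequence is shown for 3 called genes, because an AP-1 motif, the binding letters of FOS and JUN factors, is well known from keratinocyte genes. All 3 carry the motif, which most called genes lack, so they do not stand for the called sets. The stretches come from the RefSeq table of build GRCr8, read 5′ to 3′ on the gene's strand, with the letters TGANTCA (the same on both strands) in capitals. Dmkn was called higher, Il1a and Plaur lower in Clone_217 and Clone_287. The stretches are chr1:95141466-95141522 on the plus strand for Dmkn, chr3:136990018-136990054 on the minus strand for Il1a and chr1:89181255-89181311 on the plus strand for Plaur.
Dmkn: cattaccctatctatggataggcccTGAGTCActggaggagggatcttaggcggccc
Il1a: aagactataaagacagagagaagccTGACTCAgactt
Plaur: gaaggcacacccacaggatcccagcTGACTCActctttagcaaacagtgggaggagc
The motif began 129 bases before the annotated start in Dmkn, 12 in Il1a and 83 in Plaur. In windows from 250 bases before to 50 after the start, the letters occurred in 4 of 82 called-higher genes (4.88%), in 8 of 68 called-lower genes (11.8%) and in 7.33% of 24206 genes, all counted over genes with 1 promoter in the table. A match is a description of letters and not a bound site.

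Interferon and antigen-presentation genes were called in a few members. Of 25 measured interferon response genes, 2 were called lower and 0 higher, with a median difference of -0.04. The shares over all probe sets were 0.614% lower and 0.738% higher. Usp18, a protease that removes ISG15, had signals of 6.89 in Clone_217 and 6.38 in Clone_287, against 8.88 in Clone_218 and 8.26 in Clone_347. Ifit2 had 5.58 and 5.38, against 8.24 and 6.87. Of 17 measured MHC class I pathway genes, 1 was called lower, the immunoproteasome subunit Psmb8, with 6.80 and 6.75, against 8.43 and 8.06. In that list 17 of 19 probe sets had a negative mean difference, with a median of -0.20, while B2m, the class I light chain, had signals of 11.77 and 11.99, against 12.14 and 12.07.

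Of 12 measured MHC class II genes, Cd74 was called lower, where 0.614% of all probe sets were, and the median difference was -0.33. Cd74, the invariant chain that accompanies class II molecules, had signals of 5.22 in Clone_217 and 5.22 in Clone_287, against 7.10 in Clone_218 and 6.32 in Clone_347. The class II chain RT1-Da had signals between 4.04 and 4.53 in the 4 clones. Tgfb2, a TGF-beta ligand, had 5.29 and 4.70, against 6.86 and 6.36, and Igfbp3, a binding protein of insulin-like growth factors, 7.97 and 6.87, against 9.19 and 8.51.

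**Figure D3:**
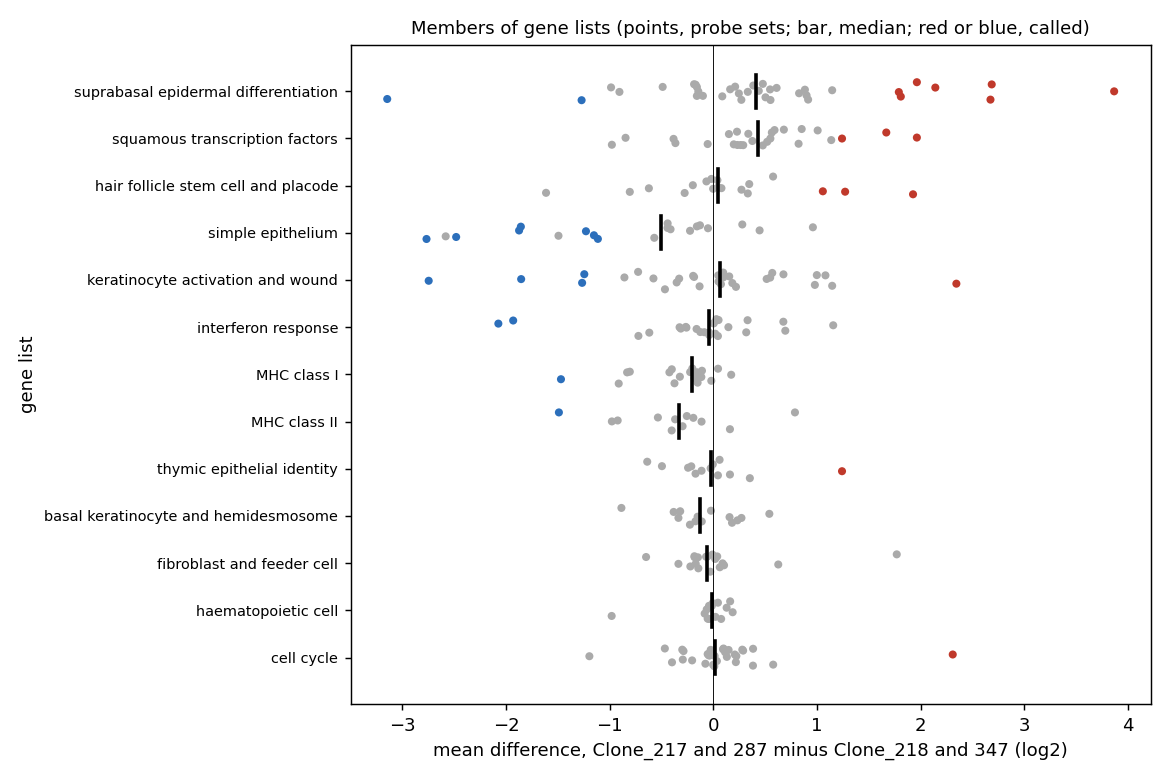
Mean difference between the kinds, in log2 signal, for the members of 13 gene lists. Points are probe sets, coloured where called, and bars are medians. Called members are 7 higher and 2 lower genes for suprabasal differentiation and 5 lower genes for simple epithelium, and 0 for basal keratinocytes, fibroblasts and haematopoietic cells. Over all probe sets 0.738% were called higher and 0.614% lower.

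Markers of epithelial and basal identity were not called between the kinds. None of 8 measured epithelial identity genes and none of 14 measured genes of basal keratinocytes and hemidesmosomes was called. Over all probe sets 0.738% were called higher and 0.614% lower. In lists this short, no call is near those shares and is not read as a result about identity. Krt14, the basal keratin, had signals of 13.14 in Clone_217 and 13.31 in Clone_287, against 13.14 in Clone_218 and 12.95 in Clone_347, and Tp63, the factor that maintains stratified epithelium, 9.16 and 9.58, against 9.10 and 9.18. Cdh1, E-cadherin, lay between 10.67 and 10.78.

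Regulators of thymic epithelial identity were also not called, apart from Gata3, in 13 measured genes. Over all probe sets 0.738% were called higher and 0.614% lower, so few calls would be found in any list of this size. Foxn1, the factor on which thymic epithelial differentiation depends, had low signals of 5.93 in Clone_217 and 6.005 in Clone_287, against 5.75 in Clone_218 and 5.48 in Clone_347. Pax9, a factor of the pharyngeal pouches, had 8.30 and 7.87, against 8.68 and 8.76, and averaged 6.32 in ungrafted HF cultures. Isl1 had 6.50 and 6.06, against 6.78 and 6.13, with a mean of 4.36 in ungrafted HF cultures. Pax1 had signals between 4.99 and 5.55. Ccl25 and Psmb11, defining products of cortical thymic epithelium, were at or near the lowest signals of the array in the 4 clones, between 3.26 and 4.29.

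Markers of other cell types were called between the kinds for melanocytes only, among the 6 such lists measured. None of 19 measured fibroblast and feeder genes was called, and the list's mean signal was 5.88 in Clone_217 and 5.84 in Clone_287, against 5.95 in Clone_218 and 5.72 in Clone_347. None of 14 haematopoietic genes was called, with Ptprc between 3.24 and 3.44 and Cd3e between 3.48 and 3.63, and none of 9 endothelial, 7 nerve or 9 muscle genes was called. With 0.738% of all probe sets called higher and 0.614% lower, no call in lists this short is near the share over all probe sets. Cd68 was higher in Clone_347, at 8.78, than in the other three clones, at 6.70 to 7.55. Of 8 melanocyte genes, Gpnmb and Mitf were called higher, by 4.06-fold and 2.62-fold, where 0.738% of all probe sets were. The list's mean signal was 4.68 in Clone_217 and 4.72 in Clone_287, against 4.17 in Clone_218 and 4.48 in Clone_347. The defining genes Mlana, Tyr and Tyrp1 had signals below 4 in all 4 clones. Vim, the intermediate filament of mesenchyme that cultured epithelial cells also express, had 10.25 and 10.01, against 9.87 and 6.85, a difference confined to the second pair. Mesenchymal Twist1 was not called.

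The called genes were next followed in the 12 cultures that played no part in dividing the clones. In a limma fit over culture means, ungrafted TEC and ungrafted HF cultures differed at an adjusted p under 0.05 in 151 higher (0.986%) and 115 lower (0.751%) of 15310 probe sets. Of the 113 probe sets higher in Clone_217 and Clone_287, 22 (19.5%) were lower in ungrafted TEC than in ungrafted HF cultures and 0 were higher, with a median difference of -0.78. Of the 94 lower in Clone_217 and Clone_287, 18 (19.1%) were higher in ungrafted TEC and 0 were lower, with a median of 1.18. The median over all probe sets was -0.01.

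These counts depended most on the HF culture YR219P5_Bulk_V, without which 8 of the 113 and 8 of the 94 passed, with medians of -1.11 and 1.08. Without the TEC culture PRP4mo_Cl09, 12 and 12 passed, and without PRP4mo_bulk 15 and 12. Leaving out any one of the 6 ungrafted cultures gave 8 to 20 of the 113 and 8 to 14 of the 94, with 1 of the 113 higher in TEC when PRE16cl11_VII or YR219P5cl7 was left out. The TEC donors were E16, P1 or 4 months old and the HF donors P5, and this difference in stage cannot be told apart from tissue here.

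Lgals7 was the clearest of these genes. It averaged 5.10 ± 0.23 in ungrafted TEC (SD, n = 4 cultures) and 11.05 ± 0.32 in ungrafted HF cultures (n = 2), a limma difference of -5.96 (SE 0.30, adjusted p = 1.3e-05). The levels in Clone_217 and Clone_287 lay above both HF cultures, and those in Clone_218 and Clone_347 lay between the TEC and HF cultures. Lhx2 averaged 5.53 ± 0.14 in ungrafted TEC and 7.25 ± 0.47 in ungrafted HF cultures, a difference of -1.72 (SE 0.19, adjusted p = 0.00266). For Lhx2, Clone_217 and Clone_287 were at the level of the HF cultures and Clone_218 and Clone_347 near that of ungrafted TEC.

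Moxd1, Lrat, Gata3, Slc6a4, Vdr and Msx2 were the other named genes of the higher set that were lower in ungrafted TEC, by 1.18 to 4.33 on the log2 scale apart from Lrat, whose mean there was under 4, and Ctnnal1 was lower by 2.29 (limma adjusted p = 0.00134). Of these, Moxd1, Gata3, Slc6a4, Vdr and Msx2 lost the call without YR219P5_Bulk_V, with adjusted p in that and other settings reaching 0.273 for Msx2. On the lower side, Krt8 (10907524) averaged 11.23 ± 0.34 in ungrafted TEC and 5.45 ± 0.47 in ungrafted HF cultures, a difference of 5.78 (SE 0.56, adjusted p = 0.00113). Krt7 and Krt19 were not called here, with differences of 1.76 and 1.59 (limma adjusted p = 0.0718 and 0.672). Plaur was higher in ungrafted TEC by 1.82 (SE 0.23, adjusted p = 0.00475). Krt18 (10940455), Akap12 and Arhgdib were higher in ungrafted TEC too, by 3.12, 3.95 and 4.84, but each of these calls was lost without PRP4mo_bulk or YR219P5cl7, with adjusted p up to 0.192 for Krt18.

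Position between the kinds differed from culture to culture. Each culture was placed, for each called probe set, with the kind whose mean was nearer. The ungrafted E16 clone was nearer to Clone_217 and Clone_287 for 21.2% of the probe sets called higher and for 22.3% of those called lower, against 51.9% over all probe sets. The 3 ungrafted TEC cultures of P1 and 4-month donors were as low for the higher set, at 17.7% to 22.1%, but not for the lower set, at 44.7% to 58.5%, against 45.2% to 51.4% over all. Of the ungrafted HF cultures, YR219P5_Bulk_V was nearer to Clone_217 and Clone_287 for 48.7% of the higher and 86.2% of the lower probe sets, against 49.7% over all, so its share of the higher set was near that of all probe sets. YR219P5cl7 was nearer for 61.1% and 90.4%, against 51.2% over all. The grafted HF culture Clone_54 was nearer to them for 71.7% and 93.6%, against 52.3% over all. Among grafted P1 and 4-month TEC cultures the share of the higher set ranged between 25.7% in Clone_354 and 64.6% in Clone_907, and that of the lower set between 61.7% in Clone_907 and 87.2% in Clone_194, against 48.0% to 55.3% over all. Probe sets of a list are not independent of each other, so these shares carry no test.

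**Figure D4:**
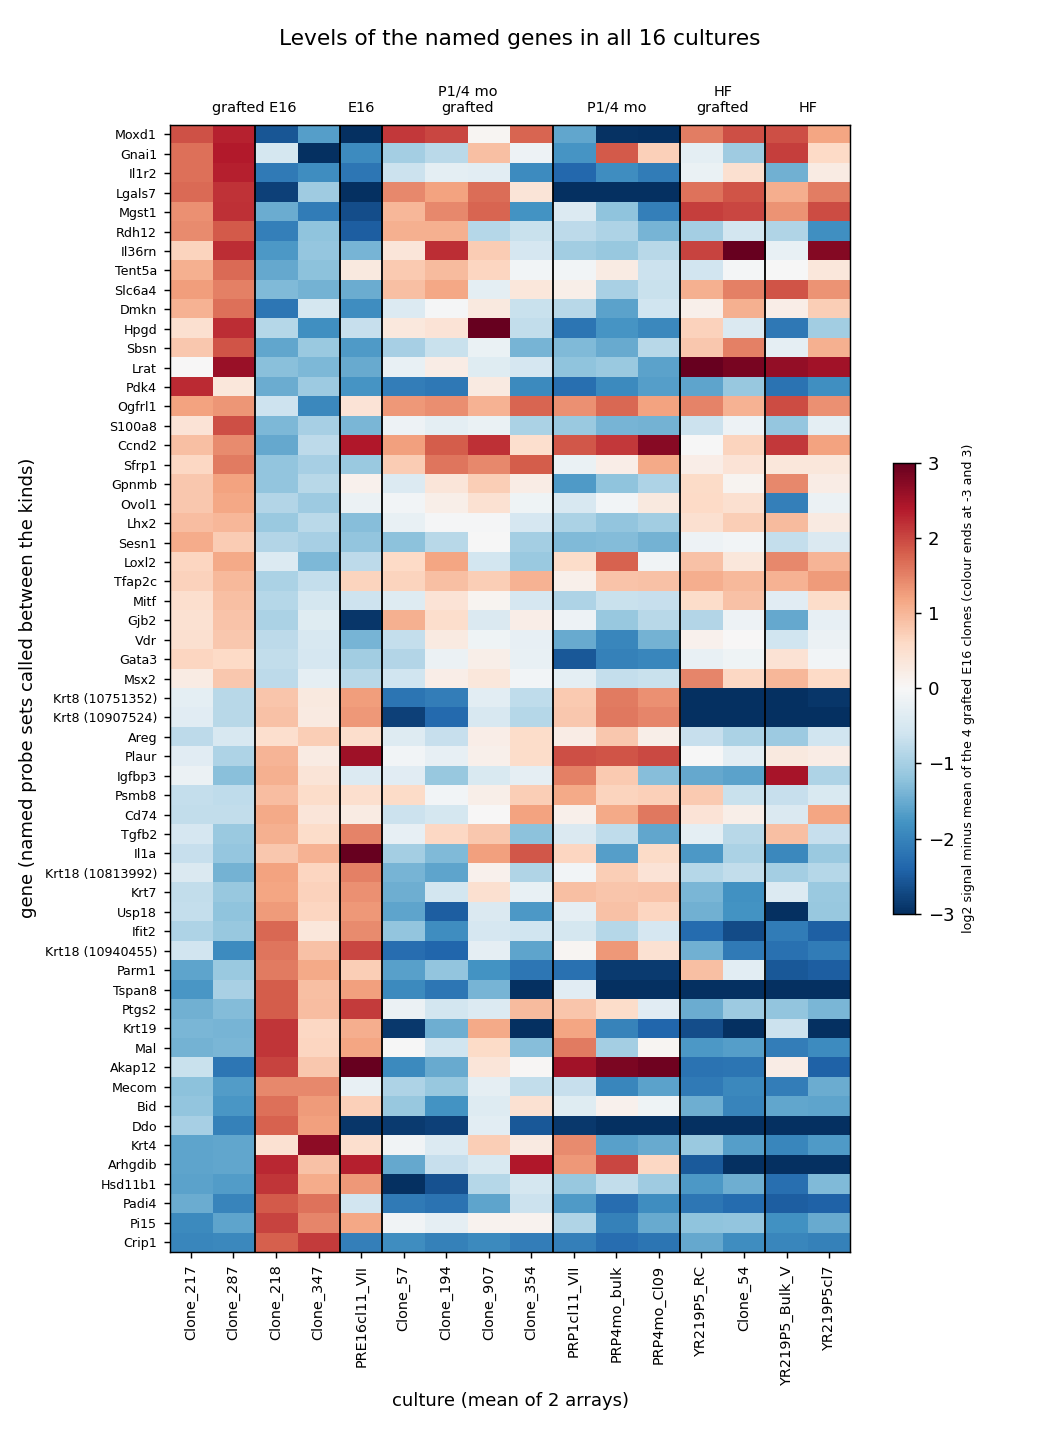
Log2 signals of the 58 named probe sets called between the kinds, in all 16 cultures, each minus the mean of the 4 grafted E16 clones. Columns run through Clone_217 and Clone_287, Clone_218 and Clone_347, the ungrafted E16 clone, grafted and ungrafted P1 and 4-month TEC, and grafted and ungrafted HF. Crip1 is high in Clone_218 and Clone_347 only among these cultures, and Lgals7 is low in every ungrafted TEC culture.

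Grafted TEC of the other donor ages showed part of the same genes. Grafted and ungrafted TEC of P1 and 4-month donors, 4 cultures against 3, differed in 76 higher (0.496%) and 68 lower (0.444%) of 15310 probe sets by limma. Of the 113 probe sets higher in Clone_217 and Clone_287, 15 (13.3%) were higher in grafted cultures and 0 were lower, with a median of 0.81. Of the 94 lower ones, 9 (9.6%) were lower in grafted cultures and 1 was higher, with a median of -0.46. The ungrafted TEC cultures of this comparison also enter the one against HF cultures, so the 2 sets of values are not separate observations. Without PRP4mo_bulk, 1 of the 113 was higher and 3 of the 94 were lower in grafted cultures, while the medians were 0.80 and -0.45.

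Lgals7 averaged 10.92 ± 0.56 in grafted P1 and 4-month TEC (SD, n = 4) and 5.02 ± 0.19 in ungrafted ones (n = 3), a difference of 5.90 (SE 0.27, limma adjusted p = 1.6e-05). Sh3rf2 averaged 8.82 ± 0.27 in grafted and 6.30 ± 0.25 in ungrafted cultures, a difference of 2.53 (adjusted p = 0.00203), and Ctnnal1 rose by 1.80 (adjusted p = 0.00899). The 3 genes thus rose after grafting in the other donor ages. In the E16 clones, Lgals7 in Clone_218, at 6.94, and in Clone_347, at 8.67, stayed below every grafted P1 or 4-month culture. So did Ctnnal1 in Clone_218 and Clone_347, at 7.62 and 7.33, and Sh3rf2 in Clone_218 alone, at 7.04.

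Gata3 and Vdr were higher after grafting by 1.90 and 1.43 on the log2 scale (adjusted p = 0.00899 and 0.0214), and Plaur fell by 1.83 (adjusted p = 0.00203). The calls of Moxd1, Gata3, Vdr, Lrat, Krt8 and Akap12 were lost without PRP4mo_bulk, with adjusted p of up to 0.21 over the settings that lost them. Pi15 was the 1 probe set that ran against the direction between the kinds. It was higher in grafted P1 and 4-month TEC by 1.44 (SE 0.23, adjusted p = 0.0214), although lower in Clone_217 and Clone_287, and its call was lost without PRP4mo_bulk or PRP4mo_Cl09.

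**Figure D5:**
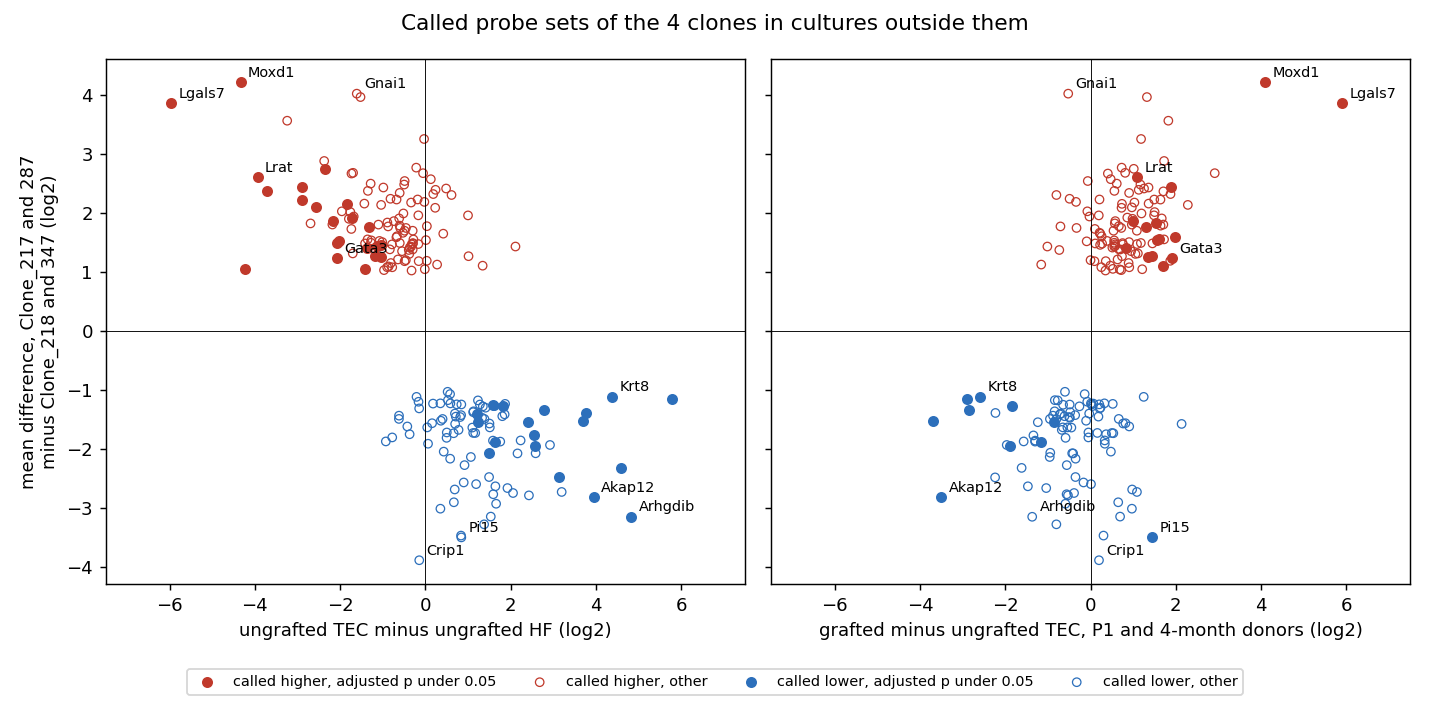
Mean log2 difference between the kinds (vertical axis) for the called probe sets, against their log2 difference between ungrafted TEC and ungrafted HF (left) and between grafted and ungrafted P1 and 4-month TEC (right), all in cultures outside the 4 clones. Filled points have a limma adjusted p under 0.05. Filled red points lie left of 0 in the left panel and right of 0 in the right panel.

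Across the 4 clones the number of transplantations was compared with the kind held as a block. The kinds were selected on these same arrays, so the spread left in this fit, and its p-values, depend on that selection. The 2 clones after the second transplantation differed from the 2 after the first in 14 higher (0.0914%) and 17 lower (0.111%) of 15310 probe sets by limma. This fit has 1 residual degree of freedom, each state is 2 single clones, and no probe set was called when arrays were centred on their medians, when all 16 cultures shared a fit or when any 1 clone was left out, where 3 clones remained. At an unadjusted p under 0.05 there were 470 probe sets. Of the 113 probe sets higher in Clone_217 and Clone_287, 3 (2.7%) were higher after the second transplantation (Dmkn, Cnfn and Egln3) and 0 lower. Of the 94 lower ones, 2 (2.1%) were higher and 3 (3.2%) lower.

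The largest decreases after the second transplantation were in Prom1, Mxra8, Upk1b, Slc38a4 and Loxl1. Upk1b, a urothelial tetraspanin, had signals of 5.67 in Clone_287 and 5.16 in Clone_347, against 7.69 in Clone_217 and 7.65 in Clone_218, with 10.18 in the ungrafted clone. The difference was -2.26, and its call was lost in 6 other settings, among them those without any 1 clone. Mxra8 had 6.25 and 6.37, against 8.25 and 9.11, with 10.09 in the ungrafted clone. Prom1, the pentaspan protein prominin-1, had 4.95 and 6.47, against 6.33 and 9.97, with 10.89 in the ungrafted clone. Slc38a4 and Loxl1 ran the same way, with differences of -1.80 and -1.60.

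The largest increases were in Acap1, Ppbp, Aim2, Cdh2 and Cdx2. Acap1 had signals of 8.80 in Clone_287 and 9.71 in Clone_347, against 7.25 in Clone_217 and 7.82 in Clone_218, a difference of 1.72. Ppbp, a platelet chemokine, had 7.65 and 9.29, against 6.08 and 7.93. Aim2, a DNA sensor, Cdh2, N-cadherin, and Cdx2, an intestinal homeobox factor, were higher by 1.34, 1.26 and 1.25. Every one of these 10 calls was lost in at least 6 of the other settings.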

How the data were processed

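The deposited table holds log2 signals per probe set. The submitters' processing notes name RMA and Affymetrix Expression Console as the authors' tools. Software version, background settings and annotation release are not given in the sources used here. Total RNA was amplified and biotin-labelled by the Affymetrix whole transcript protocol, per the labels' protocols. RMA aligns the distributions of arrays, so a shift common to most genes is not seen, and an array has no count depth. The number of clones limits the precision.

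Of 29215 probe sets, 15310 with 1 gene symbol (14506 genes) were used, 323 had several symbols and 13582 no listed gene. The 2 arrays of each culture were averaged. The labels do not say whether they come from separate cultures. Kinds were compared by differences within each transplantation state, with the call rule given in the text and no test. The other comparisons used limma 3.58.1 in R 4.3.3 (lmFit, eBayes, Benjamini-Hochberg, adjusted p limit 0.05) on culture means: 12 cultures outside the clones for TEC against HF, 11 for grafted against ungrafted P1 and 4-month TEC, and the 4 clones for transplantation number. Scripts were tested on simulated data. Named genes are the 15 largest called on each side whose higher kind averages at least 5, up to 4 called members per list, the 3 markers, a fixed panel and the 5 largest per side for transplantation number. Of the panel, Krt5 and Mki67 were not analysed here. Members, lists and rules were chosen with earlier results of these data known. Array numbers were checked for pairing. Over 120 culture pairs, the deviations of equal-numbered arrays correlated between -0.64 and 0.57 (median -0.01), and 23 pairs were over 0.1. Some cultures thus shared array deviations, in either direction. The numbers were not used to pair cultures in the main comparisons. Alternatives covered centring, a level filter, single arrays and cultures left out, arrays as units, merged probe sets and other fold limits.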

Additional observations from a re-analysis of the deposited data

Results flagged for a closer look

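Among the named genes, 142 groups of 4 cultures were examined for 1 culture far from the other three by Dixon's criterion, and 8 such cultures were found, where chance gives about 1 in 20 groups. In ungrafted TEC cultures the culture apart was the E16 clone PRE16cl11_VII for Hsd11b1 (8.27, against 5.82 to 6.23 in the other three), Ifit2 (7.94, against 5.67 to 6.02), Plaur (10.84, against 10.17 to 10.27), Krt7 (10.71, against 10.17 to 10.24) and Krt18 probe set 10745345 (5.65, against 5.32 to 5.34). In the same cultures S100a8 was higher in PRP1cl11_VII (3.66, against 3.37 to 3.40), below the signal taken as shown above background. In grafted P1 and 4-month TEC, Clone_907 stood apart for Pdk4 (6.42, against 4.00 to 4.23) and Ddo (7.32, against 4.76 to 5.09). Epcam differed between the kinds in opposite directions, by -0.12 after the first and 0.42 after the second transplantation, in every array, and the difference between these was not tested.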

How the results depend on the processing

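No named gene called between the kinds changed direction under any alternative run. The call rule asks for arrays that do not overlap, so dropping arrays or clones could not reverse a called gene. The unchanged directions therefore lend no support to the kinds. The counts between the kinds (113 higher, 94 lower) followed the fold limit, at 327 and 272 for 1.5-fold and 43 and 39 for 3-fold, and were 209 and 163 without the division by transplantation state, where the rule asks less. Leaving out 1 clone, without that division, gave 178 to 345 higher and 157 to 271 lower, and using 1 array per culture 94 to 152 and 88 to 120. The labels do not say what equal array numbers share. With them as a replicate block, requiring all 4 differences to pass, 81 were called higher and 69 lower.

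Ungrafted TEC against HF (151 higher, 115 lower) gave 36 to 231 and 23 to 226 when 1 culture was left out, lowest without YR219P5_Bulk_V, 675 and 448 with arrays as units, 653 and 436 with the replicate block added, and 90 higher with the 6 ungrafted cultures alone. Grafted against ungrafted P1 and 4-month TEC (76 and 68) gave 7 to 94 and 7 to 82 when 1 culture was left out, lowest without PRP4mo_bulk, 44 to 98 and 57 to 67 with 1 array per culture, 699 and 667 with arrays as units, 652 and 619 with the replicate block, and 131 higher with donor stage in the model. Second against first transplantation (14 and 17) gave 0 and 0 with centred arrays, with all 16 cultures or without any 1 clone, 6 and 9 with a level of at least 5, 3 and 5 with the replicate block, 25 and 30 with probe sets of a gene merged, and 0 to 1 and 2 with 1 array per culture. The cause of these changes was not tested, beyond the smaller samples and changed rules. With 2 clones per kind, differences between kinds and between single clones cannot be told apart.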
